A study of Mus musculus with 16 samples.

Results

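RNA of the whole hypothalamus was compared between mice fed a high-fat diet for 3 days and mice fed chow, over 5110 tests, each the entry of 1 gene or of overlapping genes at 1 locus. All mice carried the PNOC-L10a-EGFP transgene on a C57BL/6N background and were 10 to 12 weeks old, and the groups differed in diet alone per the labels (control diet, CD, or high-fat diet, HFD). The labels list 4 input libraries for each diet, taken from dissected hypothalamus before the tagged ribosomes of prepronociceptin neurons were precipitated, and 4 libraries of the precipitate (IP), 16 libraries in all. Whether each library holds RNA of 1 mouse or of pooled mice is not stated, nor is it stated whether inputs and IPs that bear equal numbers shared tissue. The authors deposited 1 table for each diet, which gives 1 FPKM (fragments scaled to transcript length and to the mapped fragments) for the input group and 1 for the IP group, with no value per library. Read depth and the spread between libraries are therefore unknown.

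The tables list only entries called different between IP and input. Of 7673 tests listed in either table, 5553 were listed in both with the same gene and locus. The 5110 tests compared here had at least 1 FPKM in both inputs. The threshold left 443 joined tests aside. Foxo4, a forkhead transcription factor, was just inside it with an input of 1.098 FPKM in chow and 1.0 in high-fat, and Ctsc, a lysosomal protease, was just outside it with 0.9929 and 1.177 FPKM. The difference between diets is given as log2(HFD/CD) of the input FPKM, centred on the median of all 5110 tests, which was -0.0144 before centring. A gene that is not listed in a table cannot be called unchanged.

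The hypothalamus controls feeding, body temperature, stress hormones and the pituitary gland. It lies above the pituitary, around the third ventricle, below the thalamus, behind the septum and preoptic area and in front of the dopamine neurons of the ventral midbrain. Its arcuate neurons sense leptin, insulin and nutrients, and short high-fat feeding is known to act on them and on nearby glia. Transcripts whose textbook site of expression is a neighbouring tissue are therefore described apart from those of hypothalamic cells. In dissected tissue, fewer cells of a type and less RNA per cell cannot be told apart.

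The inputs of both diets were close to each other. Across the 5110 tests, the log2 levels had a Pearson r of 0.9971, a description across genes, which are not replicates. The central 95% of tests lay between -0.29 and 0.26 on the log2 scale, and 94.4% of tests differed by less than 1.2-fold. At least 1.5-fold higher after the high-fat diet were 14 tests (0.274% of all), and at least 1.5-fold lower were 17 (0.333%). At the 2-fold limit 1 test was higher (0.0196%) and 8 were lower (0.157%). Either way, 31 tests passed 1.5-fold (0.607%) and 9 passed 2-fold (0.176%). At a limit of 1.2-fold, chosen after the values were seen, 285 tests differed (5.58%), of which 131 were higher (2.56%) and 154 lower (3.01%). Low levels held most of the larger differences. Between 1 and 2 FPKM in the lower input, 14 of 473 tests passed 1.5-fold, and from 100 FPKM upward 2 of 416 did, namely the pituitary hormone genes Gh and Prl.

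**Figure D1:**
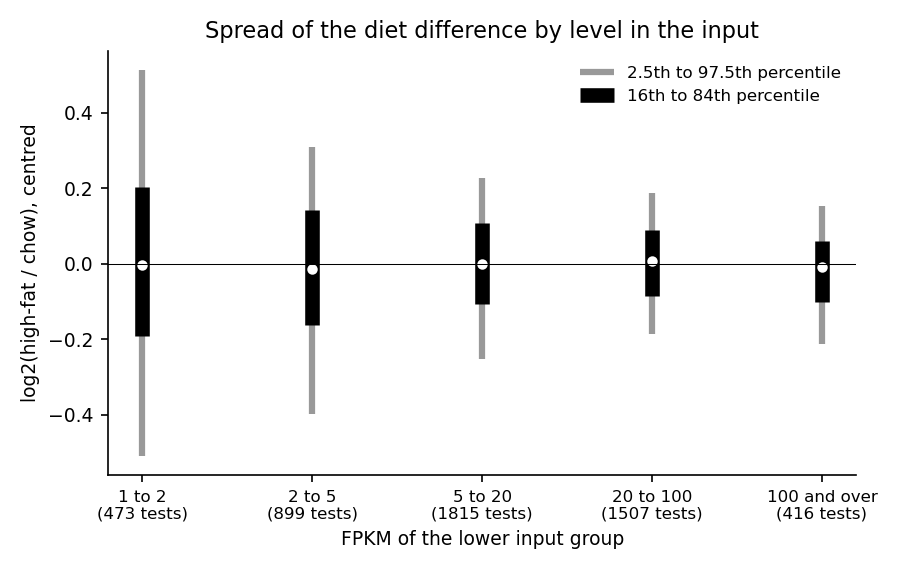
Spread of the input difference between diets by expression level. The x axis gives bins of the lower input FPKM and the y axis the centred log2(HFD/CD), with the median as a white point, the 16th to 84th percentile as a black bar and the central 95% of tests as a grey line; the central 95% runs from -0.51 to 0.51 in the lowest bin and from -0.21 to 0.15 in the highest.

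No replicate error of the inputs could be computed, so an upper bound stood in for it. The authors' deposited tables give a log2 fold of IP over input and its test statistic. Their quotient was taken as a standard error that holds the error of both groups. Both diets' standard errors combined bound the error of the input difference from above if input and IP varied independently, with a median of 0.43 on the log2 scale. A two-sided normal test against this bound, Benjamini-Hochberg adjusted over 5109 tests, called 0 tests (0.0%), and its smallest adjusted p was 0.443. Without adjustment 5 tests had p at or below 0.05 (0.0979%), namely Ttr, Gh, Cga and Slc6a3, which were lower, and Rdh13, which was higher. The bound is wide: the differences had an SD of 0.279 when divided by it. The authors' deposited p-values imply a smaller error than these quotients. Turned back into normal deviates, they exceeded the deposited statistic by a median factor of 1.96 in chow and 1.95 in high-fat. A test with that smaller error was not run, so the 0 calls do not show that no input level differed. Each difference below is thus a difference between 2 group values, and none passed the adjusted test on this wide bound.

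**Figure D2:**
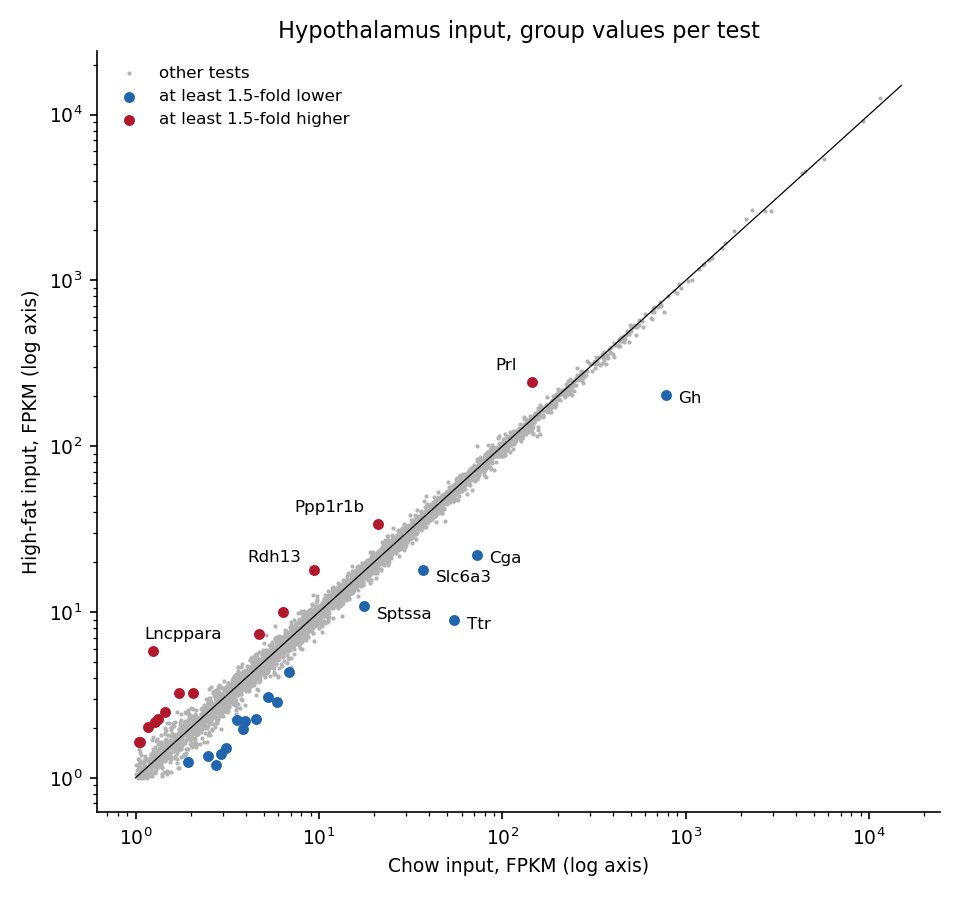
Input FPKM in chow (x axis) and after the high-fat diet (y axis), both on log scales, for the 5110 tests. Points are tests, and coloured points are those at least 1.5-fold higher (14) or lower (17); Gh, Ttr, Cga and Slc6a3 lie below the line of equal levels and Prl, Rdh13 and the Lncppara locus above it.

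Genes of the anterior pituitary and of the choroid plexus held the 3 lowest values of all 5110 tests, and the pituitary hormone genes did not all differ in the same direction. Ttr encodes transthyretin, the thyroid hormone carrier that choroid plexus epithelium secretes, and its input level was 54.7 FPKM in chow and 8.89 in high-fat. That is 16.4% of the chow level, a log2 difference of -2.61 with an error of at most 0.66. Gh, growth hormone (chr11:106300271-106301865, minus strand, GRCm38), stood at 781 FPKM in chow and 204 in high-fat. Its log2 difference was -1.92 with an error of at most 0.51. Cga, the alpha subunit shared by thyrotropin, luteinizing hormone and follicle-stimulating hormone (chr4:34893779-34907370, plus strand), stood at 72.6 and 22.1 FPKM, a log2 difference of -1.70 with an error of at most 0.57. Prl, prolactin (chr13:27057570-27065205, plus strand), went the other way, with 146 FPKM in chow and 243 in high-fat. Its difference of 0.75 had an error of at most 0.54, and its deposited span is wider than the annotated gene, so other genes of that cluster may share its value. Fshb, the beta subunit of follicle-stimulating hormone, was listed in the chow table only, with 6.28 FPKM in input.

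The IP libraries showed the same order of diets for all 4 genes. Whether they shared tissue with the inputs is not stated, so they cannot be counted as an independent repeat. In IP, Gh had 96.4 FPKM in chow and 20.6 in high-fat, Cga 53.7 and 9.34, Ttr 4.28 and 1.25, and Prl 14.1 and 22.7. Of the pituitary list of 10 genes, 5 could be compared, and Pomc and Chga, which neurons also express, each had a difference of -0.23. The summed input of these 5 genes was 1115 FPKM in chow and 567 in high-fat, and without Gh it was 335 and 363, the other direction. Of the genes in that smaller sum, Prl alone was higher, and Cga, Pomc and Chga were each lower. Of 8 choroid plexus markers 3 could be compared, and the other two differed far less than Ttr: Otx2, a transcription factor, had 2.95 and 2.92 FPKM, and Clic6, a chloride channel protein, had 3.11 and 3.37. The part that pituitary or choroid plexus tissue in the dissected pieces had in these values was not tested.

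Gh and Prl are both activated in the pituitary by the factor Pit-1 (POU1F1), while gonadotrope and thyrotrope cells express Cga, and the promoters of Prl and Cga are shown as examples of genes with opposite differences. The promoter of Gh, which also differed in the direction opposite to Prl, was not analysed here, so no relation between motif and direction can be read from these sequences. Each sequence holds 250 bases before to 50 bases after the RefSeq start in GRCm38.p6, on the gene's own strand, written 5′ to 3′, for chr13:27057320-27057619 and chr4:34893529-34893828, both plus strand. Capitals mark matches of TATNCAT, a short form of the Pit-1 site, searched on both strands.
Prl: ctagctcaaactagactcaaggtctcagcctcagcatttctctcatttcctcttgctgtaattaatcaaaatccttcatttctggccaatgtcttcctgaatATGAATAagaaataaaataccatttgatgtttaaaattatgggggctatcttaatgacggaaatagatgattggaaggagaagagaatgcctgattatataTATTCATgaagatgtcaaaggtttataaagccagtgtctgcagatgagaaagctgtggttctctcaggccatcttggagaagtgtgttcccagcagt
Cga: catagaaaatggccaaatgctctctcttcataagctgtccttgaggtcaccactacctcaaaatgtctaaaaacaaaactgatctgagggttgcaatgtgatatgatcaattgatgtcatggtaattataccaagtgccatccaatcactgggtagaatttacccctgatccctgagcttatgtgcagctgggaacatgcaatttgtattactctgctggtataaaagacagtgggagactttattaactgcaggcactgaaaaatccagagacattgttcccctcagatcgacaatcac
The Prl promoter held 2 matches, 47 bases before the start on the plus strand and 148 bases before it on the minus strand, and that of Cga held 0. The motif was found in 2903 of 32851 promoters of this length (8.84%). A match is a description of the letters only.

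Several genes typical of ventral midbrain dopamine neurons had lower input levels after the high-fat diet. A list of 20 such genes was chosen after the values were seen, so its counts are a description. Of these, 7 could be compared, and all 7 had a difference below 0, from -1.20 to -0.24 with a median of -0.99. At the 1.5-fold limit 4 of the 7 were lower, against 0.333% of all tests, and nothing is read from this share because the list was picked with the values known. Slc6a3, the dopamine transporter (chr13:73536747-73578672, plus strand), stood at 37.1 FPKM in chow and 18 in high-fat, a difference of -1.03 with an error of at most 0.43. En1, a homeobox factor that midbrain dopamine neurons need to survive, had 2.74 and 1.19 FPKM. Chrna6 and Chrnb3 are nicotinic receptor subunits typical of these neurons and lie next to each other on chromosome 8. Chrna6 had 4.55 and 2.27 FPKM, and Chrnb3 3.11 and 1.52.

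Further members of the list differed less. Aldh1a1, a retinaldehyde dehydrogenase of ventral tier dopamine neurons, had 155 FPKM in chow and 115 in high-fat, a difference of -0.42 with an error of at most 0.38. Slc10a4, a vesicle protein of monoaminergic and cholinergic neurons, had 9.45 and 6.68 FPKM. Ntsr1, a neurotensin receptor, had 3.52 and 2.96 FPKM. Th, Ddc and Slc18a2, which make and store dopamine in hypothalamic as well as midbrain neurons, were listed in the chow table only, with inputs of 63.9, 40.8 and 21.9 FPKM, and so were Lmx1a, Lmx1b and Foxa1. For these 6 genes no difference can be given. In IP, 6 of the 7 compared genes were also below 0, with a median of -0.63, and Slc6a3 had 3.34 and 1.61 FPKM. Irx2, an Iroquois homeobox factor outside the list, had 2.49 FPKM in chow and 1.36 in high-fat. Its difference of -0.85 was smaller than its error bound of 1.47.

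Markers of the thalamus stood mostly below 0 and those of striatum and of GABAergic forebrain lineages mostly above it, by small amounts. Of 12 thalamic genes 11 were compared, 10 were below 0 and the median was -0.17, against 0 for all tests by centring. Prkcd, a kinase of thalamic relay neurons, had 48.4 FPKM in chow and 35.5 in high-fat (difference -0.43), and Tcf7l2, a factor that defines thalamic neurons, had 81.5 and 65.2 (-0.31). Zic1, which septal neurons also express, was the member above 0, with 23.2 and 25 FPKM. No thalamic gene passed 1.5-fold, and Prkcd, Tcf7l2 and Synpo2 (an actin-binding protein, 19.3 and 15.7 FPKM) were lower at 1.2-fold, against 3.01% of all tests. In IP, 9 of the 11 were below 0 with a median of -0.21.

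All 11 genes of the GABAergic list were compared, 9 were above 0, and the median was 0.23. At 1.2-fold 4 of them were higher, against 2.56% of all tests, among them Dlx2, Lhx6 and Dlx5. Lhx6, a factor of medial ganglionic eminence descendants and of zona incerta neurons, had 5.74 FPKM in chow and 8.26 in high-fat (0.54, error at most 0.41). Dlx5, a homeobox factor of forebrain GABA neurons, had 5.12 and 7.22 FPKM (0.51, error at most 0.43). Gad2, a GABA-synthesizing enzyme, had 255 and 298 FPKM (0.24), while the vesicular GABA transporter Slc32a1 had 24.3 and 22.8 (-0.08). In IP the same list had 9 genes above 0 and a median of 0.12.

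A few further genes that neighbouring forebrain regions express strongly were higher, while most other compared members of their lists differed less. Ppp1r1b encodes DARPP-32, the dopamine-regulated phosphatase inhibitor of striatal projection neurons, and had 21 FPKM in chow and 33.9 in high-fat, 1.63-fold, a difference of 0.71 with an error of at most 0.49. Of the other striatal genes compared, Penk (proenkephalin) had 34.3 and 41.0 FPKM, Rasd2 (Rhes, a striatal GTP-binding protein) 25.5 and 26.5, and Tac1 (tachykinin precursor) 50.3 and 48.3. Adora2a, Drd1 and Rgs9 were listed in the high-fat table only, with inputs of 1.22, 1.89 and 7.77 FPKM. Tbr1, a T-box factor of glutamatergic neurons of cortex, olfactory bulb and preoptic area, had 1.45 and 2.49 FPKM. Of 12 cortical and hippocampal genes 4 were compared, with a median of 0.03. Besides Tbr1 these were Neurod6 (-0.01), Prox1 (-0.09) and Camk2n1 (0.08). Slc5a7, the choline transporter of cholinergic neurons, had 1.73 and 3.23 FPKM. Of 8 basal forebrain cholinergic genes only 2 were compared, Slc5a7 and Isl1 (0.31). Over the 4 compared striatal genes the median in IP was 0.02, with 2 above 0 and 2 below. The IP difference of Ppp1r1b was 0.08, while those of Tbr1 and Slc5a7 were 0.64 and 0.45. The summed inputs over the compared markers were 347 FPKM in chow and 303 in high-fat for the thalamic list, 131 and 150 for the striatal list, and 216 and 148 for the midbrain list. The part that tissue of these neighbouring regions had in these values was not tested.

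**Figure D3:**
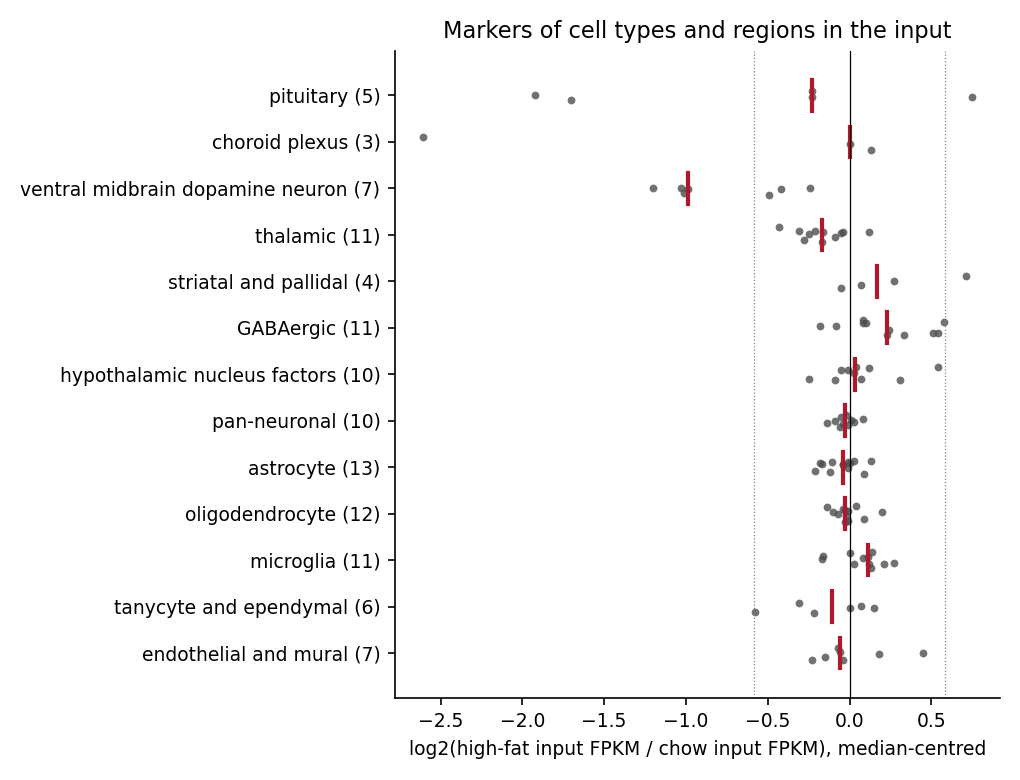
Centred log2(HFD/CD) of the input (x axis) for the compared members of each marker list (rows), with points for genes, a red bar for the list's median and dotted lines at 1.5-fold. Midbrain dopamine genes (median -0.99) and thalamic genes (-0.17) lie left of 0 and GABAergic genes (0.23) right of it, while astrocyte (-0.04), oligodendrocyte (-0.02) and pan-neuronal genes (-0.03) lie close to 0.

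Most compared markers that define hypothalamic cells were close to the median of all tests. Of 27 transcription factors of hypothalamic nuclei 10 were compared, with a median of 0.04. At 1.2-fold 2 of them were higher, against 2.56% of all tests, namely Lhx6 (0.54) and Isl1 (7.27 and 8.92 FPKM, 0.31). Nkx2-1, which specifies the ventral hypothalamus, had 5.79 FPKM in chow and 6.02 in high-fat, Bsx, a factor of arcuate and dorsomedial neurons, had 2.31 and 2.35, and Nr5a1, the factor of the ventromedial nucleus, had 1.37 and 1.35. Lef1, a Wnt effector also present in thalamus, was the lowest of the 10 with 24.1 and 20.1 FPKM (-0.25), and Lhx6 the highest. Pnoc itself, the precursor of nociceptin, had an input of 4.62 FPKM in chow and 4.35 in high-fat, a difference of -0.07 with an error of at most 0.44, and its IP levels were 19.9 and 19.8 FPKM. Rpl10a, the gene whose protein carries the tag, was listed in the chow table only.

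Hypophysiotropic and magnocellular peptide genes included several higher values. Avp, the precursor of vasopressin, had 72.6 FPKM in chow and 99.9 in high-fat, 1.39-fold, a difference of 0.47 with an error of at most 0.48. Oxt, oxytocin, had 27.0 and 31.3 FPKM (0.23), and Tac2, the neurokinin B precursor, had 37.4 and 46.8 (0.34). Gnrh1, which encodes gonadotropin-releasing hormone of preoptic neurons, had 1.33 and 2.26 FPKM (0.77, error at most 0.92). Trh, thyrotropin-releasing hormone, had 9.29 and 10.3 FPKM, Ghrh, growth hormone-releasing hormone, had 20.2 and 20, and Sst, somatostatin, had 112 and 102. Ghrh and Sst, which stimulate and inhibit growth hormone release, had differences of -0.01 and -0.11. The difference of Gh was -1.92, and a relation between these values was not tested. Of the list of 10 genes 8 were compared, with a median of 0.20, and 5 of the 8 were above 0 in input and 5 in IP.

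Peptides of feeding neurons differed little. Pomc, the melanocortin precursor of arcuate neurons that pituitary cells also express, had 86.8 FPKM in chow and 73.1 in high-fat (-0.23, error at most 0.47). Pmch, the precursor of melanin-concentrating hormone, had 460 and 426 FPKM (-0.10), Cartpt, an anorexigenic peptide, 35.5 and 34.6 (-0.03), and Hcrt, orexin, 116 and 120 (0.06). Agrp and Npy, the other two of this list, were listed in neither table. Among 13 compared other neuropeptides the median was -0.07. At 1.2-fold 2 were higher, Penk and the neurotensin gene Nts, and 2 were lower, against 2.56% and 3.01% of all tests. The lower ones were Cck, cholecystokinin, with 160 and 119 FPKM (-0.41, error at most 0.38), and Grp, gastrin-releasing peptide, with 2.25 and 1.59 (-0.48, error at most 0.71). In IP, Cck had a difference of -0.46 and Grp one of -0.02.

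Receptors for metabolic and feeding signals stayed within a narrow range. Of 26 such genes 12 were compared, and all 12 differences lay between -0.16 and 0.15 with a median of -0.01. Insr, the insulin receptor, had 9.11 FPKM in chow and 9.09 in high-fat, Glp1r, the receptor of glucagon-like peptide 1, had 2.97 and 3.07, and Oprl1, the nociceptin receptor, had 20.7 and 19.7. The serotonin receptor Htr2c had 18.7 and 16.6 FPKM (-0.16), and the calcitonin receptor Calcr 3.51 and 3.85 (0.15). The error bounds of these genes, at least 0.33 on the log2 scale, are wider than the differences, so this bound cannot tell them from 0.

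The compared genes that glucocorticoids induce were all on the lower side, by small amounts. Of 18 such genes 8 were compared, all 8 were below 0, the median was -0.20, and 2 were lower at 1.2-fold, against 3.01% of all tests. These were Zbtb16, a zinc finger factor, with 5.44 FPKM in chow and 4.1 in high-fat (-0.39, error at most 0.41), and Cdkn1a, a cell cycle inhibitor, with 14.5 and 11.9 FPKM. The metal-binding proteins Mt1 and Mt2 had 145 and 121, and 235 and 210. Tsc22d3 (GILZ), a direct receptor target, differed least, with 23.1 and 22.3 FPKM (-0.04). In IP the list's median was -0.04, with 6 genes below 0 and 2 above. The heat shock list went the other way by less: all 7 compared of 13 were above 0, from 0.03 to 0.19, with a median of 0.06 in input and 0.18 in IP.

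Genes of lipid metabolism, often studied under high-fat feeding, showed no compared member past 1.2-fold. Of 25 targets of PPAR-alpha and genes of fatty acid oxidation 14 were compared, 7 above and 7 below 0, with a median of -0.02. Under the 1 FPKM minimum, Plin4, a lipid droplet protein also on the glucocorticoid list, had 0.888 FPKM in chow and 0.405 in high-fat, and Angptl4, an inhibitor of lipoprotein lipase, had 0.931 and 0.988. Cpt1a, which carries fatty acids into mitochondria, had 6.63 FPKM in chow and 5.87 in high-fat (-0.16). Pdk4, an inhibitor of glucose oxidation, had 3.92 and 3.78. Acot1 had the highest difference (0.22) and its near-identical neighbour Acot2 the lowest (-0.20), so the split of reads between them is uncertain. Of 15 genes of fatty acid synthesis 9 were compared, 8 below 0, with a median of -0.08 and a range from Acly (ATP citrate lyase, -0.18) to Elovl5 (a fatty acid elongase, 0.11). Scd1, a stearoyl-CoA desaturase, had 54.4 and 53.0 FPKM. The 4 compared of 20 sterol synthesis genes lay between -0.10 and 0.01.

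Inflammation and stress lists were thinly covered and stood near 0. Of 16 inflammatory genes 3 were compared, from Rela (an NF-kappaB subunit, 4.48 FPKM in chow and 3.79 in high-fat) to Cd68 (a macrophage lysosomal protein, 3.54 and 4.07). Interferon-stimulated genes had a median of 0.02 over 8 of 18, from H2-K1 (class I antigen presentation, -0.22) to Ifit1 (an antiviral protein, 0.28). Genes of the unfolded protein response had a median of 0.02 over 6 of 16, from Creld2 (-0.19) to Hspa5 (the endoplasmic reticulum chaperone BiP, 0.17). Of 20 immediate early genes 4 were compared, and Egr1, an activity-induced factor, was the lowest with 21.7 and 18 FPKM (-0.26, error at most 0.34) and Arc, a synaptic protein, the highest with 5.43 and 5.92. Of 12 genes responsive to leptin and STAT3 signalling only Cish, a cytokine signalling inhibitor, was compared, with 2.13 and 2.05 FPKM.

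**Figure D4:**
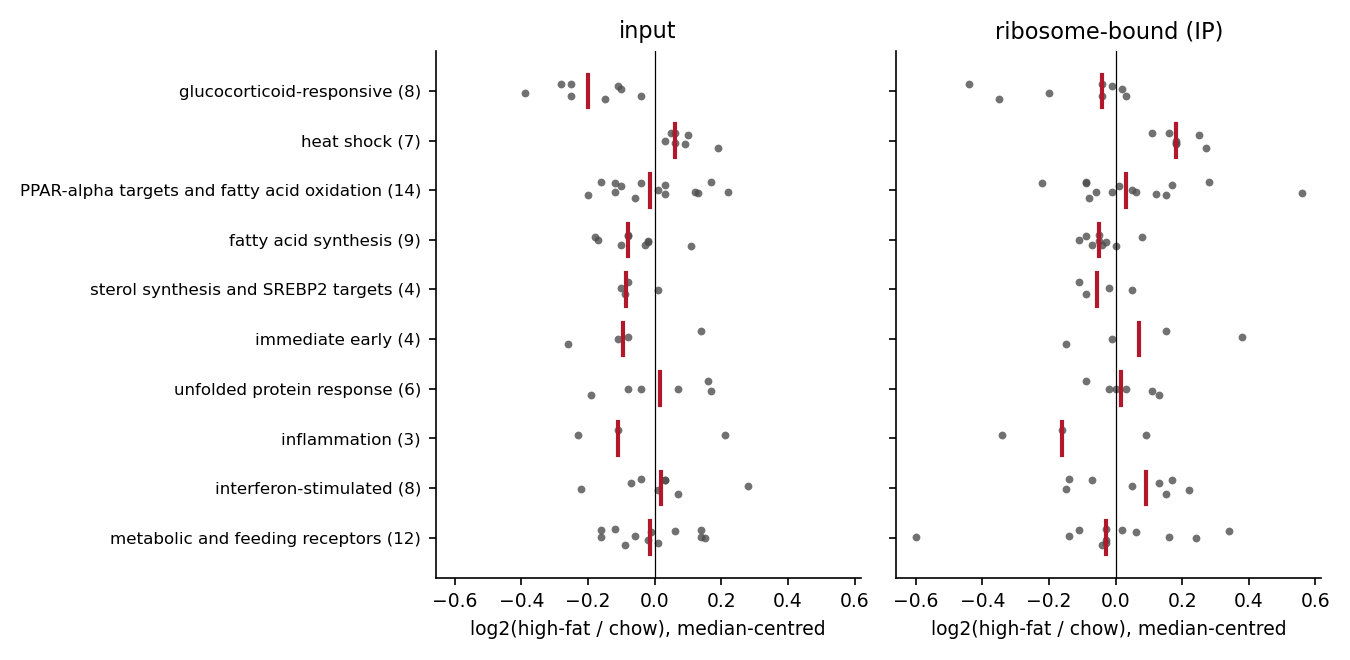
Centred log2(HFD/CD) of the input (left) and of the IP (right), both on x axes, for the compared members of pathway and receptor lists (rows, number of members in brackets), with points for genes and a red bar for the list's median. In input, glucocorticoid-responsive genes all lie left of 0 (median -0.20) and heat shock genes all right of it (0.06), and no plotted gene of the lipid lists passes 1.2-fold.

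Glial and vascular markers differed little in input. All 13 astrocyte genes were compared, with a median of -0.04 and a range from Fgfr3 (a growth factor receptor, -0.21) to Slc1a3 (a glutamate transporter, 0.13). Gfap, the astrocyte filament often used as a sign of gliosis, had 28.7 FPKM in chow and 25.2 in high-fat. All 12 oligodendrocyte genes were compared, with a median of -0.02 and a range from Mog (-0.14) to Ugt8a (0.20), both of myelin. Of 14 microglial genes 11 were compared, 8 were above 0 and the median was 0.11. Tyrobp, a signalling adaptor, was the highest with 19.1 and 22.9 FPKM (0.27, error at most 0.69), and C1qc, a complement component, was the lowest (-0.17). Of 16 endothelial and mural genes 7 were compared, with a median of -0.06, from Ly6c1 (-0.23) to Acta2 (smooth muscle actin, 0.45). The haemoglobin genes Hbb-bs and Hbb-bt, near-identical copies whose reads may be split, had differences of 0.41 and 0.33, and Hba-a1 had 11.3 and 11.2 FPKM.

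Markers of tanycytes and ependyma, the cells that line the third ventricle, had a median of -0.11 over 6 of 12 genes. Crym, a thyroid hormone-binding protein of tanycytes and some neurons, was the lowest with 7.02 FPKM in chow and 4.66 in high-fat (-0.58, error at most 0.61). Vim, an intermediate filament, had 8.46 and 6.77 FPKM, and Dio2, the deiodinase that activates thyroid hormone, 7.24 and 6.14. Foxj1, the factor of ciliated ependymal cells, was the highest with 3.16 and 3.47. In IP the same genes had a median of 0.08.

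Rdh13, a mitochondrial retinol dehydrogenase (chr7:4424770-4445649, minus strand), differed in input but not in IP. Its input was 9.45 FPKM in chow and 17.8 in high-fat, 1.90-fold, a difference of 0.92 with an error of at most 0.42. Its IP levels were 6.26 and 6.04 FPKM, a difference of -0.04. Sptssa, a subunit of the serine palmitoyltransferase that starts sphingolipid synthesis, showed the opposite pattern, with 17.7 and 10.8 FPKM in input (-0.70, error at most 0.46) and 7.17 and 7.0 in IP (-0.02). The difference between input and IP was not tested for either gene. Around Rdh13, 9 of 19 genes of retinaldehyde and retinoic acid metabolism, a list chosen after the values were seen, were compared. Crabp1, a retinoic acid-binding protein of arcuate neurons, had 9.23 and 12.7 FPKM (0.48, error at most 0.43), Crabp2 had 2.62 and 1.98 (-0.39), and the list's median was -0.08.

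The largest higher value belonged to a merged entry on chromosome 15 and had a wide error bound. The entry holds the long non-coding gene Lncppara (chr15:85653616-85707524, plus strand) with the let-7b and let-7c-2 hairpin genes inside its span, and stood at 1.24 FPKM in chow and 5.79 in high-fat. The difference was 2.23, but its error bound was 6.46, and the IP levels were 0.213 and 0.173 FPKM. The mature forms from the 5′ arms, per RefSeq, are shown because the entry bears their names; they lie at chr15:85706616-85706637 for let-7c and chr15:85707325-85707346 for let-7b, and capitals mark the seed, bases 2 to 8, which both share.
mmu-let-7c-5p: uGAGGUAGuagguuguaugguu
mmu-let-7b-5p: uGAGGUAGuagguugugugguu
Libraries of this kind measure long RNA, so the value says nothing of the level of these mature miRNAs.

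The remaining tests past 1.5-fold were of many kinds and mostly low. Lower were Isg20, an interferon-induced exonuclease (3.86 FPKM in chow and 1.96 in high-fat), Ifitm1, an interferon-induced membrane protein (3.93 and 2.2), and Stxbp2, a syntaxin-binding protein (5.25 and 3.07). Also lower were Hif3a, a hypoxia factor (3.56 and 2.23), Bnc2, a zinc finger protein (6.89 and 4.35), and Anxa1, an anti-inflammatory phospholipid-binding protein (1.94 and 1.25). For these 6 genes the error bound was larger than the difference. Higher were Spi1, the myeloid factor PU.1 (1.28 and 2.17 FPKM), Tmem86b, a lysoplasmalogenase (2.06 and 3.24), the histone gene Hist1h2bb (1.17 and 2.02), and the gene models Gm44430 and Gm19963. For each of these higher tests too the error bound was larger than the difference. Among all tests past 1.5-fold this held for 8 of the 17 lower and 8 of the 14 higher.

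Values of several entries are uncertain because near-identical copies can share their reads. The pseudogene Rbm3-ps had 5.94 FPKM in chow and 2.85 in high-fat (-1.04, error at most 0.75), and 9.76 and 4.97 in IP. Its parent Rbm3, a cold-inducible RNA-binding protein, was listed in the chow table only, with 47.6 FPKM, and Cirbp, a further cold-inducible RNA-binding protein, had 20.5 and 16.1 FPKM (-0.33, error at most 0.37). The entries Ftl1-ps1 (4.71 and 7.33) and Trmt112-ps2 (6.39 and 9.98) were higher and are copies of a ferritin light chain and of a methyltransferase subunit. Zeb2os, an antisense transcript merged with 3 gene models, had 2.94 and 1.4 FPKM with an error bound of 6.7, and it is not stated whether reads were counted by strand. Just under 1.5-fold were Trac, the T cell receptor alpha constant region (5.97 and 4.05 FPKM), Tmem39b, a transmembrane protein (5.99 and 4.11), and, on the higher side, Pdzph1 (4.99 and 6.54).

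Set beside the IP libraries, most input differences past 1.5-fold had the same sign there. Of the 17 lower tests 16 were also below 0 in IP, 8 of them by at least 1.5-fold, against 1.43% of all 5109 tests in IP, and their median was -0.99 in input and -0.48 in IP. The exception was Ifitm1, with 0.355 and 0.573 FPKM in IP. Of the 14 higher tests 11 were also above 0 in IP, 4 of them by at least 1.5-fold, against 0.881% of all, and their medians were 0.76 and 0.34. The exceptions were Rdh13, Trmt112-ps2 and the Lncppara entry. Of the 17 lower tests 16 were depleted on the tagged ribosomes relative to input in both diets, and of the 14 higher tests 10 were. Among all 5110 tests, 2167 were depleted in both diets. Over all 5109 tests the input and IP differences had a Pearson r of 0.414 and a Spearman rho of 0.417, and r was 0.361 over the 5078 tests under 1.5-fold in input. These are descriptions across genes, and each test had to differ between IP and input in both tables to be listed. It is not stated whether inputs and IPs shared tissue, so equal signs are not an independent repeat.

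**Figure D5:**
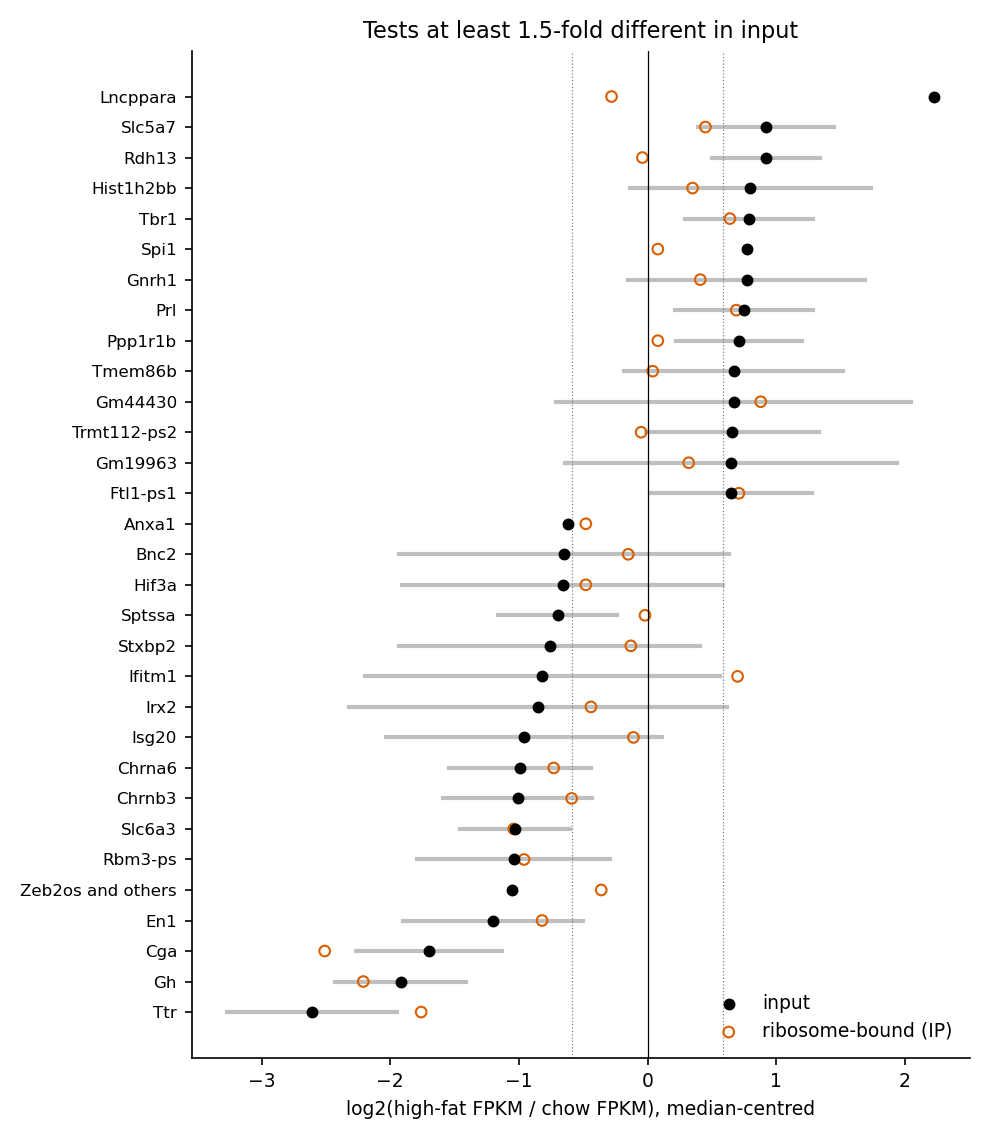
Centred log2(HFD/CD) (x axis) of the 31 tests at least 1.5-fold different in input (rows), with the input as black points, the error bound as grey bars to either side and the IP as open circles; bars are left out for Lncppara, Spi1, Anxa1 and Zeb2os, whose bounds are over 1.5 on the log2 scale, and dotted lines mark 1.5-fold. Ttr, Gh, Cga and Slc6a3 are low in both input and IP and Prl is high in both. Several others are near 0 in IP, among them Rdh13, Sptssa, Ppp1r1b, Tmem86b, Spi1 and Trmt112-ps2.

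The most abundant inputs differed little. Snap25, a synaptic vesicle fusion protein, had 5659 FPKM in chow and 5401 in high-fat, mt-Co1, a mitochondrially encoded subunit of cytochrome oxidase, had 9224 and 9155, and Fth1, ferritin heavy chain, had 2908 and 2607. Malat1, a nuclear non-coding RNA, had 2296 and 2662 FPKM, and the gene model Gm37376, which lies inside the Malat1 locus on the opposite strand and may share its reads, had 11485 and 12662. The pan-neuronal list had a median of -0.03 over 10 of 12 genes, with a range from Syt1 (a calcium sensor of vesicles, -0.14) to Eno2 (neuronal enolase, 0.08).

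Of the tests left aside, 68 had under 1 FPKM in 1 input only, and 13 of these 68 differed by 1.5-fold or more. Levels on either side of the minimum favour large ratios. This share is therefore not comparable with the 0.607% over the 5110 tests. Of these 13 tests, 12 were lower. Epcam, an epithelial adhesion protein, had 1.07 FPKM in chow and 0.376 in high-fat, and Aldh1a7, a close relative of Aldh1a1, had 1.37 and 0.545. Gatm, the first enzyme of creatine synthesis, was the one that was higher, with 0.707 and 2.04 FPKM. They were chosen by their values and are given as values only.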

How the data were processed

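Input and IP RNA of hypothalamus was sequenced after Ovation RNASeq V2 amplification, with oligo(dT) and random priming, and Nextera XT preparation, per the labels' protocols. The submitters' processing notes name the build GRCm38.p6 and the tools Cufflinks 2.2.1, Cuffdiff, StringTie 1.3.4d and HISAT2 2.1.0. How libraries were scaled, and whether both tables were scaled together, is not given in the sources used here. Amplification of little RNA adds noise at low levels. The authors deposited FPKM per group, made from the 4 libraries of each, with a log2 fold of IP over input, their test's signed score (its statistic) and its p-value and q-value, per the file headers. All listed q-values were at or below 0.0499.

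Both tables were joined on gene and locus, and entries that repeat 1 locus counted once. The difference was log2(HFD/CD) of the input FPKM with no pseudocount, at a minimum of 1 FPKM in both, centred on its median. With no value per library there was no test between replicates, as the fixed design allowed for. The normal test on the error bound (deposited log2 fold divided by deposited statistic) was Benjamini-Hochberg adjusted and was tested on simulated data. It is conservative: a deposited p-value, turned back into a normal deviate, exceeded its own statistic by a median factor of 1.96 (chow) or 1.95 (high-fat). The p-values of this normal test rest on errors of IP and input taken from the authors' tests. They do not measure the spread between input libraries, and part of the error may be technical. Named were the 12 highest and 12 lowest tests with at least 5 FPKM in the higher input, members of each list past 1.5-fold or else its highest and lowest, Pnoc and Rpl10a, the 10 most abundant tests, and the 5 with the lowest p; others were named after their values were seen. The members and lists were chosen with earlier results of these data known. Of 8289 identifiers, 8283 were found in GENCODE M21, which gave positions; sequences came from RefSeq tables of GRCm38.p6. The columns of per-sample values set aside numbered 0. Alternatives changed the scaling, minimum level, pseudocount, merging, join and selection. Python 3.11.15, pandas 2.3.3, NumPy 2.4.6, SciPy 1.17.1 and Matplotlib 3.10.9 were used.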

Additional observations from a re-analysis of the deposited data

How the results depend on the processing

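No paired analysis was possible because only group values were deposited for each diet, and for the same reason no library could be left out in turn. Of the counts at 1.5-fold (14 higher, 17 lower) and 2-fold (1 higher, 8 lower), those below moved by more than 1.5 times, and the cause was not tested beyond the number of tests. With at least 5 FPKM in both inputs (3738 tests) 4 were higher and 5 lower at 1.5-fold, and 0 and 4 at 2-fold. With at least 0.1 FPKM (5552 tests) the counts were 25 and 37, and 3 and 13. With log2(FPKM + 1), 5 were higher at 1.5-fold and 3 lower at 2-fold. Counting every gene identifier gave 3 higher at 2-fold, and keeping single identifiers only gave 0, since the Lncppara entry holds several. Among tests enriched on ribosomes in both diets 5 were higher and 1 lower at 1.5-fold, and 0 and 1 at 2-fold. The 1.2-fold limit, chosen after seeing the data, gave 131 and 154. The adjusted test on the error bound called 0 tests under each alternative run. Other scalings moved list medians and named genes by a median of at most 0.015 on the log2 scale. Without centring, the medians of the GABA-A and glycine receptor, mitochondrial ribosomal protein and histone lists changed sign. Across the alternatives, 25 recomputed list medians moved by more than 1 robust SD of all tests (0.112) and 521 did not. None of 486 values of named genes moved by more than its error bound. These bounds are at least 0.32, and most alternatives leave the FPKM ratio of a gene as it was. That comparison could therefore hardly come out otherwise, and nothing is read from it. Precision is limited by unknown depth and by low levels.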

Other observations

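Gene families named by their symbols stood close to the median of all tests in input. Nuclear-encoded subunits of the mitochondrial respiratory chain were below 0 in 54 of 77 tests, with a median of -0.05 in input and -0.18 in IP, where 72 were below 0. The 9 tests of mitochondrially encoded transcripts had a median of 0.04 in input and 0.25 in IP, with 8 and 9 above 0. Cytosolic ribosomal proteins were below 0 in 9 of 12 tests in input (median -0.06) and in 12 of 12 in IP (-0.17). Zinc finger genes of the Zfp series were above 0 in 34 of 51 tests (median 0.05), and proteasome subunits had a median of -0.01 over 25 tests. The genes of a family share libraries and are not replicates, and no test was made of these medians.

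Among synapse and channel genes, Gabrd, the delta subunit of extrasynaptic GABA-A receptors, had an input of 3.57 FPKM in chow and 2.62 in high-fat (-0.43, error at most 0.50) and a difference of -0.49 in IP. The 6 other compared GABA-A and glycine receptor genes lay between -0.14 and 0.07. Slc17a7, the vesicular glutamate transporter of cortex and thalamus, had 6.08 and 4.61 FPKM (-0.39, error at most 0.43) and -0.53 in IP, while Slc17a6, the form that prevails in the hypothalamus, had 62.0 and 59.6 (-0.04).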
